A study of Mus musculus with 6 samples.

Results

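The 10 genes described here, Rab27a, Rab32, Rab38, Mlph, Myo5a, Hps1, Hps4, Hps5, Ap3b1 and Lyst, act in the formation and transport of melanosomes and other lysosome-related organelles. They were chosen by name from a deposited table of 21936 mouse genes, and each name was found in it. Polyadenylated RNA was sequenced from PAM212 cells, a mouse line labelled as keratinocytes, grown in DMEM with 10% FBS. The miR28 group holds 3 libraries of PAM212 cells infected with a lentivirus that carries the mouse miR-28-3p gene. The NC group holds 3 libraries of PAM212 cells whose treatment label reads as not treated. The sources used here do not state an empty lentivirus for NC cells, the promoter of the lentivirus, a clone, or separate cultures behind the 3 libraries, so p-values measure only the spread between these libraries, which may be technical. The design line names melanocytes, while every sample label names keratinocytes.

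As background, melanosomes are made in melanocytes from endosomes that receive pigment enzymes by way of the adaptor AP-3 and the complexes BLOC-1, BLOC-2 and BLOC-3. BLOC-3, a dimer of the Hps1 and Hps4 proteins, activates the small GTPases Rab32 and Rab38, which direct that cargo. Ripe melanosomes are held at the cell edge by Rab27a on their membrane, the adaptor melanophilin (Mlph) and the actin motor myosin Va (Myo5a), and are then passed to keratinocytes. The same machinery serves lysosome-related organelles of other cells, and mutations of these genes give the pale coats of many classical mouse mutants.

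The microRNA sequence is shown first because the labels name it as carried by the lentivirus of the miR28 group. The NC label reads as not treated, so the groups also differ by infection itself. The microRNA and the infection cannot be told apart here. In RefSeq (GRCm38.p6) both arms lie on the plus strand of chromosome 16, at chr16:24827908-24827929 for the 3p arm and chr16:24827868-24827889 for the 5p arm. Both are printed 5′ to 3′ with the seed, bases 2 to 8, in capitals.
mmu-miR-28a-3p: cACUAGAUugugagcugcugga
mmu-miR-28a-5p: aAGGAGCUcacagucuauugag

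The longest annotated 3′ UTR of each gene in GENCODE M21 (GRCm38) was searched on the transcript strand for the letters that pair with these seeds, and all 10 genes had such a UTR. The 7-mer for the 3p arm, ATCTAGT, stood in 0 of the 10 UTRs, against 6.5% of 11648 tested genes with a UTR. Its shorter form TCTAGT stood in 2 of the 10, Rab32 and Myo5a, against 26.7% of those genes. The 7-mer for the 5p arm, AGCTCCT, stood in 2 of the 10, Mlph and Lyst, against 15.8%. Its shorter form GCTCCT stood in 6 of the 10, those 2 and Rab27a, Rab38, Myo5a and Hps4, against 38.6%. The labels name only the 3p arm as overexpressed, and the level of neither arm was analysed here. The 3p 6-mers and the 5p 7-mers are printed below in 30 bases of transcript, with the matching letters in capitals. Genes with the 5p 6-mer lay on both sides, with Myo5a and Rab27a higher and Mlph, Lyst and Hps4 lower in miR28 libraries. A match is a string of letters and was not tested as a target site.
Rab32, 3p 6-mer, chr10:10545338-10545367, minus strand: agaaagtagaccatgTCTAGTtttgtctgt
Myo5a, 3p 6-mer, chr9:75221976-75222005, plus strand: gcctgcagagagctcTCTAGTcttagtctg
Mlph, 5p 7-mer, chr1:90949617-90949646, plus strand: ctctcactcattcagAGCTCCTctcaggag
Mlph, 5p 7-mer, chr1:90950490-90950519, plus strand: tctcttctcgtgcacAGCTCCTtcaagaat
Lyst, 5p 7-mer, chr13:13777746-13777775, plus strand: cttccttcacatcctAGCTCCTcataggct

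Libraries held 14309898 to 16383374 counted reads in the miR28 group and 14706283 to 15385151 in the NC group. Most transcripts differed between the groups. In edgeR's quasi-likelihood test, at an adjusted p (Benjamini-Hochberg) under 0.05, 42.1% of 11809 tested genes were higher in miR28 libraries and 43.9% were lower, so a call alone sets no gene apart. With upper quartile scaling the split was 3961 higher and 6288 lower, against 4975 and 5184 with the TMM scaling used throughout, and the median over all genes was -0.26 on the log2 scale, against -0.03. Averaged over reads, gene length was 6034 ± 14.7 bases in miR28 libraries and 5102 ± 14.9 bases in NC libraries (SD, n = 3 each). The labels name no batch, and one that ran along the groups and the overexpression cannot be told apart.

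Markers of cell types are given first, because the labels name 2 cell types. Of 15 melanocyte genes, 5 had no read in any library, among them Tyr, the enzyme of the first step of melanin synthesis. The summed level of the 15 was 10.4 to 13.1 CPM (counts scaled to library size, here with TMM factors) in miR28 libraries and 10.1 to 12.1 CPM in NC libraries. Mitf, the master transcription factor of melanocytes, had 5.98, 4.22 and 4.55 CPM in miR28 libraries, against 6.97, 6.33 and 7.75 CPM in NC libraries, and was called lower (log2 fold change -0.52, edgeR adjusted p = 0.00323). Pmel, which forms the fibrils of melanosomes, had 0.649, 1.25 and 0.632 CPM in miR28 libraries and 1.95, 1.71 and 1.91 CPM in NC libraries. Slc24a5, an ion exchanger of melanosomes and the only other melanocyte marker tested, had 54, 43 and 39 reads in miR28 libraries and 16, 33 and 34 reads in NC libraries, and was called higher (log2 fold change 0.78, edgeR adjusted p = 0.00805), but not with upper quartile scaling (0.55, 0.0598), without miR28 replicate 1 (0.58, 0.0808) or without NC replicate 1 (0.49, 0.109). The melanin enzyme genes Tyrp1 and Dct had 40 and 31 reads over the miR28 group and 0 over the NC group. Sox10 and Mlana had 4 reads or fewer in any library.

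The keratinocyte list was far more abundant in sum, although not complete. The 12 genes summed to 1240 to 1250 CPM in miR28 libraries and 977 to 1010 CPM in NC libraries. Of 11 tested, 6 were higher and 5 lower, beside 42.1% and 43.9% of all tested genes. The largest parts in miR28 libraries were Itga6, Lamb3 and Dsp, with means of 329, 283 and 212 CPM. Dsg3 (0.285 CPM in miR28 and 2.79 CPM in NC libraries) and Col17a1 (2.96 and 1.56 CPM) were low. The sum was not a test of cell type. Krt5, a keratin of basal keratinocytes, had no read in any library, while its partner Krt14 had 42, 35.8 and 39.4 CPM in miR28 libraries and 30.3, 33.1 and 28.1 CPM in NC libraries. Krt15 had 0 reads in miR28 libraries and 20.4 to 22.4 CPM in NC libraries. Trp63, the transcription factor of the basal layer, had 0, 5 and 0 reads in miR28 libraries and 14, 17 and 22 reads in NC libraries. Of 8 fibroblast, 8 immune and 6 endothelial markers, 2, 3 and 2 had no read in any library. The fibroblast list summed to 16.2 to 17.1 CPM in miR28 libraries and 43.3 to 52 CPM in NC libraries, and the immune list to 4.86 to 6.8 CPM in miR28 libraries and 18.6 to 21.7 CPM in NC libraries. Most of each sum was a single gene. Pdgfra, a growth factor receptor, averaged 16.4 ± 0.454 CPM in miR28 libraries and 44.9 ± 4.13 CPM in NC libraries, and Cd68, a lysosomal membrane protein, 4.54 ± 0.874 CPM in miR28 libraries and 19.1 ± 1.83 CPM in NC libraries (SD, n = 3 each). Col1a1, the only other fibroblast marker tested, had 3, 2 and 4 reads in miR28 libraries and 54, 38 and 33 reads in NC libraries. It was also called lower (log2 fold change -3.68, edgeR adjusted p = 4.09e-11). Csf1r, the only other immune marker tested, stood at -0.02 and was not called. The endothelial list stayed under 1 CPM in every library. The part of these markers in the results below was not tested, and in such bulk samples fewer cells of a type and less RNA per cell cannot be told apart.

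Of the 10 genes, 9 passed the filter on low counts and Rab38 did not. All 9 were called, 4 higher (Myo5a, Rab32, Rab27a and Hps5) and 5 lower (Mlph, Hps1, Lyst, Hps4 and Ap3b1) in miR28 libraries. These counts stand beside 42.1% and 43.9% of all tested genes, so 4 and 5 of 9 lie near the background. In TMM-scaled CPM the 3 miR28 libraries lay above the 3 NC libraries for the same 4 genes and below them for the same 5, as they did for 42.2% and 43.8% of all tested genes. The median log2 fold change of the 9 was -0.31, against -0.03 over all tested genes, and the median of its size was 0.67, against 0.72. Beyond 1.5-fold, 1 of the 9 was called higher (Myo5a) and 3 lower (Mlph, Hps1 and Lyst), where 23.4% and 27% of all tested genes were.

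**Figure D1:**
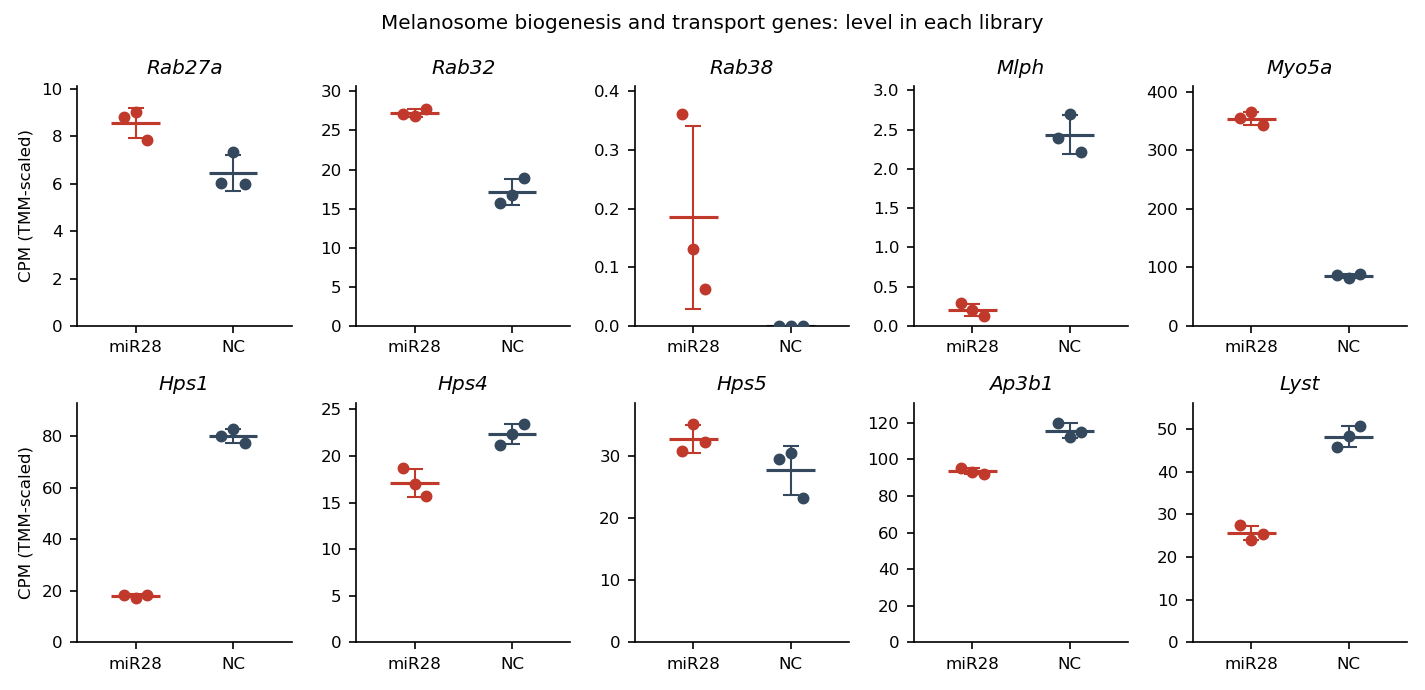
TMM-scaled CPM of the 10 genes in each of the 3 miR28 and 3 NC libraries (points), with the group mean (line) and SD (bars); each panel starts at 0 on its own scale. Myo5a stands at 343 to 365 CPM in miR28 libraries and 82.1 to 88.8 CPM in NC libraries, Hps1 and Mlph stand far lower in miR28 libraries, and the Hps5 groups nearly touch.

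Of the transport complex at the cell edge, the motor transcript rose and the adaptor transcript fell. Myo5a (ENSMUSG00000034593, chromosome 9, 75071015 to 75223688), whose motor walks on actin, had 356, 365 and 343 CPM in miR28 libraries, against 87.1, 82.1 and 88.8 CPM in NC libraries. The groups were far apart and each was tight. Its log2 fold change was 2.04 ± 0.03 (SE of the fit, n = 3 against 3, edgeR adjusted p = 2.1e-52), a 4.12-fold rise. The counts are per gene, so the melanocyte and brain splice forms of Myo5a were not told apart.

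Mlph (ENSMUSG00000026303, chromosome 1, 90915085 to 90951142), the melanophilin adaptor that joins Rab27a to myosin Va, had 4, 3 and 2 reads in miR28 libraries, against 38, 41 and 35 reads in NC libraries. In CPM that was 0.288, 0.198 and 0.126 in miR28 libraries and 2.39, 2.7 and 2.22 in NC libraries. It was low in both groups, and the groups did not overlap. The 9 reads of the miR28 group have an exact Poisson 95% interval of 4.12 to 17.1, for counting error only. The log2 fold change was -3.55 ± 0.45 (SE of the fit, n = 3 against 3, edgeR adjusted p = 1.55e-10). With 1 FPKM added before the log the same gene stood at -0.50, since that constant exceeds its level in either group.

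Rab27a (ENSMUSG00000032202, chromosome 9, 73044854 to 73097629), the GTPase that marks the ripe melanosome, had 8.8, 9.04 and 7.83 CPM in miR28 libraries, against 6.03, 7.32 and 5.97 CPM in NC libraries. The lowest miR28 library lay just above the highest NC library. The log2 fold change was 0.41 ± 0.14 (SE of the fit, n = 3 against 3, edgeR adjusted p = 0.00761). With upper quartile scaling it was 0.18 and not called (adjusted p = 0.237; 0.000561 to 0.237 over 14 alternatives, of which 13 called it).

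Within each library, which needs no scaling between libraries, the adaptor was scarce against both of its partners in the miR28 group. The ratio of Mlph to Rab27a in FPKM (reads scaled to gene length and library total) was 0.0237, 0.0159 and 0.0117 in miR28 libraries, against 0.287, 0.267 and 0.27 in NC libraries. The log2 ratio differed by -4.07 (exact permutation p = 0.1, two-sided, n = 3 against 3, also 0.1 adjusted over 4 ratios), and 0.1 is the smallest p that 3 against 3 can give. The ratio of Mlph to Myo5a was 0.00224, 0.0015 and 0.00102 in miR28 libraries and 0.0757, 0.091 and 0.0692 in NC libraries, a log2 difference of -5.70 with the same exact p = 0.1. Both differences were far larger than the spread within a group, whose largest SD was 0.57 on the log2 scale. With 0.1 FPKM added they shrank to -2.36 and -3.99. The ratios still hold any trend of fold change on gene length, and Mlph (5357 bases) is shorter than Myo5a (14803 bases). With that trend removed, the log2 fold change was -3.62 for Mlph and 1.46 for Myo5a.

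**Figure D2:**
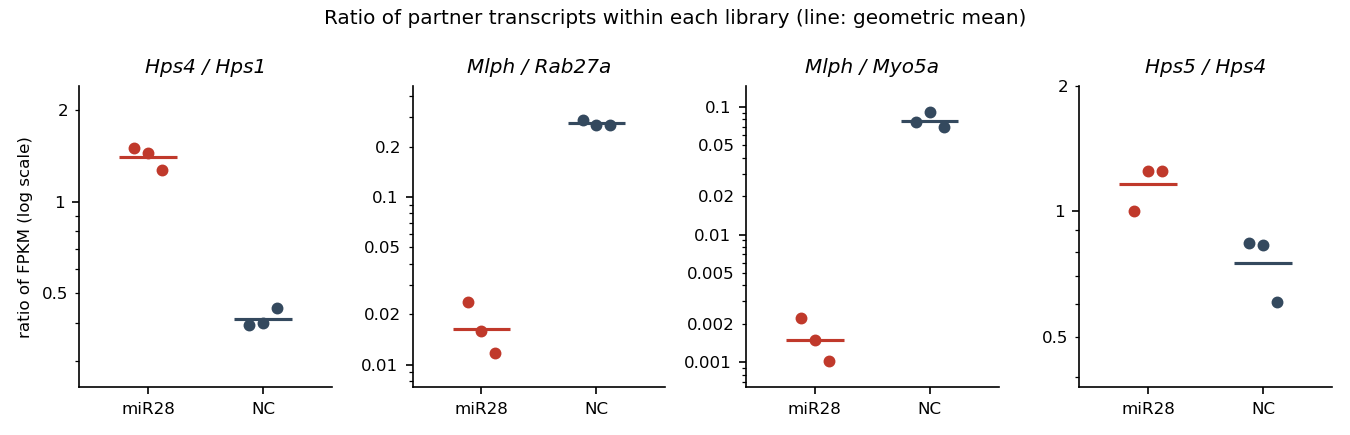
Ratio of FPKM between pairs of partner transcripts within each library, on log axes; points are the 3 miR28 and 3 NC libraries and lines the geometric means. Mlph is lower against Rab27a and against Myo5a in each miR28 library. The ratio of Hps4 to Hps1 is higher in miR28 libraries (1.27 to 1.5) than in NC libraries (0.393 to 0.448), and its place above or below 1 depends on the gene lengths used.

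The subunits of BLOC-3 both fell, by different amounts. Hps1 (ENSMUSG00000025188, chromosome 19, 42755105 to 42779978) had 18.5, 17.4 and 18.3 CPM in miR28 libraries, against 80.1, 83 and 77.3 CPM in NC libraries. That is a 4.43-fold fall, with a log2 fold change of -2.15 ± 0.06 (SE of the fit, n = 3 against 3, edgeR adjusted p = 1.63e-38). Hps4 (ENSMUSG00000042328, chromosome 5, 112343083 to 112378414) had 18.7, 17 and 15.7 CPM in miR28 libraries, against 21.2, 22.4 and 23.4 CPM in NC libraries. The groups were separate but close, with a log2 fold change of -0.39 ± 0.09 (edgeR adjusted p = 0.000111), and of -0.62 with upper quartile scaling.

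The balance of the dimer's transcripts differed between the 2 groups. The ratio of Hps4 to Hps1 in FPKM was 1.5, 1.45 and 1.27 in miR28 libraries, against 0.393, 0.399 and 0.448 in NC libraries. The log2 ratio differed by 1.76 (exact permutation p = 0.1, the smallest possible), against SDs of 0.13 and 0.10. Which of the 2 transcripts was the more abundant in miR28 libraries depended on the gene lengths used for FPKM. In CPM, which is not divided by length, Hps4 averaged 17.1 ± 1.51 and Hps1 18.1 ± 0.56 in miR28 libraries (SD, n = 3).

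The GTPases that BLOC-3 activates differed in level and were not equally measurable. Rab32 (ENSMUSG00000019832, chromosome 10, 10545002 to 10558265) had 27.1, 26.8 and 27.8 CPM in miR28 libraries, against 15.7, 16.8 and 18.9 CPM in NC libraries. It rose 1.59-fold, with a log2 fold change of 0.67 ± 0.09 (SE of the fit, n = 3 against 3, edgeR adjusted p = 3.39e-10). It was called in each of 14 alternatives, at 0.44 to 1.10, and not against the 1.5-fold minimum (adjusted p = 0.116).

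Rab38 (ENSMUSG00000030559, chromosome 7, 88430273 to 88491572), which shares its melanosome cargo role with Rab32, had 5, 2 and 1 reads in miR28 libraries and 0 reads in all 3 NC libraries. The 8 reads observed in the miR28 group stood 2.78-fold above a floor of 3 reads over the NC group. That value is not a lower bound, since it takes the 8 reads as exact. Their exact Poisson 95% interval is 3.45 to 15.8, and its low end lies close to the floor. The value rests on few molecules, and 5 of the 8 reads came from miR28 replicate 1. Without the low-count filter edgeR called it (adjusted p = 0.0242), DESeq2 did not (adjusted p = 0.0639), and the authors' deposited table gives an adjusted p of 0.103. The ratio of Rab38 to Rab32 in FPKM was 0.0197, 0.00731 and 0.00337 in miR28 libraries and 0 in all 3 NC libraries, so no log ratio or test was formed.

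Hps5, the subunit of BLOC-2 among the 10 genes, differed least. Hps5 (ENSMUSG00000014418, chromosome 7, 46760466 to 46796064) had 30.8, 35.1 and 32.2 CPM in miR28 libraries, against 29.4, 30.5 and 23.2 CPM in NC libraries. The gap between the groups was small and 1 NC library lay well below the others. The log2 fold change of 0.24 ± 0.08 (SE of the fit, n = 3 against 3) was called (edgeR adjusted p = 0.00464). That call was lost without NC replicate 3 (0.13, edgeR adjusted p = 0.127), with upper quartile scaling (0.01, 0.904) and once the trend on gene length was removed (0.04, 0.597), and 9 of 14 alternatives kept it, with adjusted p from 0.00088 to 0.904. In FPKM, which is not TMM-scaled, the groups overlapped, at 4.59 to 5.23 in miR28 libraries and 3.69 to 4.84 in NC libraries. The ratio of Hps5 to Hps4 in FPKM was 1, 1.25 and 1.25 in miR28 libraries and 0.841, 0.828 and 0.604 in NC libraries (log2 difference 0.63, exact permutation p = 0.1). That ratio still holds the trend on gene length. With the trend removed Hps5 stood at 0.04 and Hps4 at -0.27, which lie closer together.

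Ap3b1, which encodes the large beta subunit of the sorting adaptor AP-3, fell slightly. Ap3b1 (ENSMUSG00000021686, chromosome 13, 94358960 to 94566317) had 95.5, 93.1 and 92.3 CPM in miR28 libraries, against 120, 112 and 115 CPM in NC libraries. The groups were separate, with a log2 fold change of -0.31 ± 0.04 (SE of the fit, n = 3 against 3, edgeR adjusted p = 8.01e-10). All 14 alternatives called it lower, at -0.28 to -0.54, the last with upper quartile scaling.

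Lyst, whose large BEACH-domain protein limits the size of lysosomes and melanosomes and is lost in beige mice, fell. Lyst (ENSMUSG00000019726, chromosome 13, 13590397 to 13778803) had 27.5, 24.1 and 25.3 CPM in miR28 libraries, against 45.7, 48.3 and 50.7 CPM in NC libraries. That is a 1.88-fold fall, with a log2 fold change of -0.91 ± 0.07 (SE of the fit, n = 3 against 3, edgeR adjusted p = 6.92e-19).

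Gene length bore on 2 of these values most. The median log2 fold change was -0.65 in the shortest 10% of tested genes and 0.57 in the longest 10%. Myo5a (14803 bases) and Lyst (17459 bases) both belong to the longest 10%, where 66.9% of genes were called higher and 22% lower. Once the trend on length was removed, Myo5a stood at 1.46 and Lyst at -1.57, and both calls held. Rab32 (2339 bases) stood at 1.10. The part of gene length in these values beyond that fit was not tested. The other tested genes moved by less, and 8 of the 9 kept their call, all but Hps5. The authors' deposited table called 8 of the 10 with the same signs, 3 higher and 5 lower, where it called 31% and 32.8% of its genes, with Hps5 (adjusted p = 0.0586) and Rab38 not called.

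**Figure D3:**
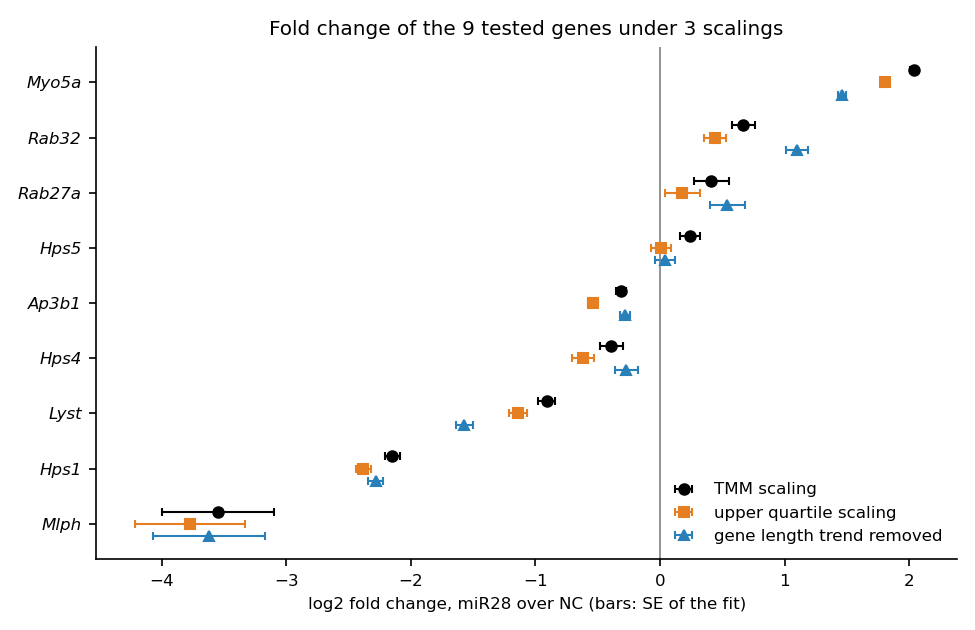
Log2 fold change, miR28 over NC, of the 9 tested genes under TMM scaling (circles), upper quartile scaling (squares) and with the gene length trend removed (triangles); bars are the SE of each fit. Mlph, Hps1, Lyst, Hps4 and Ap3b1 stay below 0 and Myo5a and Rab32 above it under all 3, while Hps5 reaches 0.01 and 0.04.

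**Figure D4:**
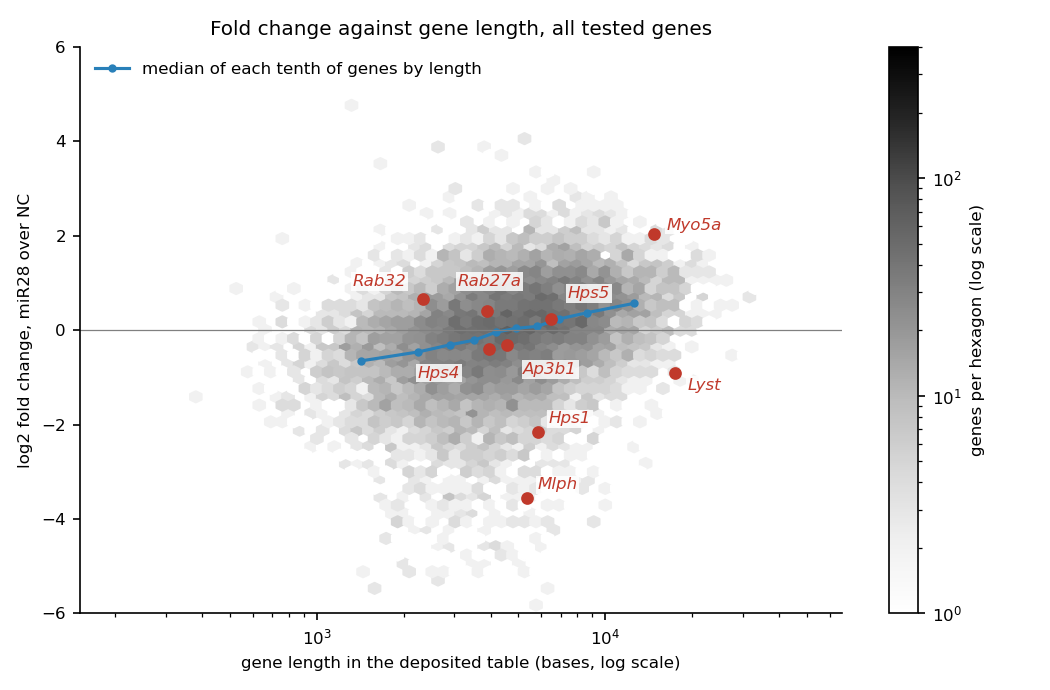
Log2 fold change against gene length for the tested genes (grey hexagons, 64 genes beyond the vertical limits of 6 not drawn), the medians of equal groups of genes by length (blue) and the 9 tested genes (red). The median climbs with length, from -0.65 to 0.57; Myo5a lies above it and Lyst, of similar length, below it.

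Per length, the order of the 10 transcripts also differed between the groups. In miR28 libraries Myo5a was the most abundant at 23.2 ± 0.744 FPKM, followed by Ap3b1 at 19.9 ± 0.38 and Rab32 at 11.3 ± 0.198 FPKM (SD, n = 3). Hps5, Hps4, Hps1, Rab27a and Lyst followed between 4.87 and 1.42 FPKM, and Rab38 and Mlph, at 0.114 and 0.0369 FPKM, overlapped with each other. In NC libraries Ap3b1 led at 26.3 ± 0.923 FPKM, followed by Hps1 at 14.1 ± 0.506 and Rab32 at 7.57 ± 0.71 FPKM. Myo5a and Hps4, at 6 and 5.84 FPKM, overlapped there, and Hps5, Lyst, Rab27a, Mlph and Rab38 followed from 4.4 FPKM down to 0. Other neighbours in either order did not overlap between their 3 libraries. Together the 10 genes took 0.0559 ± 0.00138% of the counted reads in miR28 libraries and 0.0419 ± 0.000204% in NC libraries. Without Myo5a the order turned, and the other 9 took 0.0216 ± 0.000413% in miR28 libraries and 0.033 ± 0.000316% in NC libraries.

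Partner genes of the same complexes and steps, listed by function, were set beside the 10. Of 65 partner genes 56 were tested, and 21 were higher and 23 lower in miR28 libraries, near the background of 42.1% and 43.9%. Their median log2 fold change was -0.10, against -0.03 over all tested genes.

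BLOC-1 carries cargo out of early endosomes. Of 8 BLOC-1 genes 7 were tested, 6 fell, 0 rose and Bloc1s6 was not called, with a median of -0.63, where 43.9% of all tested genes fell. Several BLOC-1 genes are short, and in the shortest 10% of genes 67% were called lower. With the length trend removed the BLOC-1 median was -0.41. Snapin, a BLOC-1 subunit that also binds SNARE proteins, had 32.5 ± 1.77 CPM in miR28 libraries and 80.9 ± 6.85 CPM in NC libraries (SD, n = 3 each), a log2 fold change of -1.31 (edgeR adjusted p = 7.92e-29). Bloc1s5, the gene mutated in muted mice, had 8.95 ± 0.652 CPM in miR28 libraries and 17.9 ± 1.07 CPM in NC libraries. Bloc1s2 stood at -0.63, which went to -0.08 and lost its call once the length trend was removed. Bloc1s3 stood at -0.89, Dtnbp1, the dysbindin gene, at -0.56, and Bloc1s4 at -0.32, which turned to 0.36 with the length trend removed. Both BLOC-2 partners of Hps5 fell. Hps3 had 31.2 ± 1.12 CPM in miR28 libraries and 49.3 ± 2.29 CPM in NC libraries (log2 fold change -0.66, edgeR adjusted p = 2.31e-14). Hps6 stood at -0.29 and at 0.07 with the length trend removed.

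AP-3 subunits went both ways. The counts in this paragraph stand beside 42.1% higher and 43.9% lower over all tested genes. Of 5 tested, Ap3m1 rose and 3 fell, and Ap3d1, the large delta subunit, was not called. Ap3m1, the widely expressed medium subunit, had 98.2 ± 3.55 CPM in miR28 libraries and 46.9 ± 1.24 CPM in NC libraries (log2 fold change 1.07, edgeR adjusted p = 1.83e-28). Its relative Ap3m2 fell, at 11.1 ± 1.57 CPM in miR28 libraries and 18.9 ± 1.41 CPM in NC libraries, and the small subunit genes Ap3s1 and Ap3s2 stood at -0.69 and -0.41 on the log2 scale. In AP-1 with its melanosome kinesin Kif13a, 6 of 8 genes rose and 1 fell. Of the 6, Ap1m1 rose by only 0.24 on the log2 scale and its groups overlapped. It had 49.3 CPM in miR28 replicate 1 and 49.6 CPM in NC replicate 1. Ap1g1 rose by 0.88 and Ap1s2 by 0.99 on the log2 scale, and the epithelial medium subunit gene Ap1m2 fell to 16.5 ± 1.38 CPM in miR28 libraries, against 41.2 ± 2.23 CPM in NC libraries. Of the 8 HOPS and CHEVI tethering genes, Vps33a, the gene mutated in buff mice, rose by 0.97, Vipas39 and Vps18 fell (log2 fold changes -0.81 and -0.43), and 5 were not called.

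Of 12 Rab27 partner genes only 6 were tested. Of these 4 fell and Exph5 rose, where 43.9% of all tested genes fell and 42.1% rose. Exph5 had 10, 19 and 25 reads in miR28 libraries and 5, 6 and 5 reads in NC libraries. It was not called by limma with 1 FPKM added before the log (adjusted p = 0.0882). Unc13d, the Munc13-4 protein of granule release, had 21.8 ± 0.459 CPM in miR28 libraries and 76.2 ± 5.42 CPM in NC libraries (SD, n = 3 each), a log2 fold change of -1.80 (edgeR adjusted p = 1.89e-34). Sytl1, a Rab27 effector of the synaptotagmin-like family, had 1, 3 and 0 reads in miR28 libraries and 28, 35 and 21 reads in NC libraries. The paralog Rab27b had 6.88 ± 0.391 CPM in miR28 libraries and 11 ± 1.62 CPM in NC libraries (log2 fold change -0.67, edgeR adjusted p = 8.94e-06).

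The genes that attach lipid anchors to Rab proteins and those that act on Rab32 and Rab38 went both ways. The Rab escort protein genes rose, Chml with 45 ± 3.23 CPM in miR28 libraries and 11.2 ± 0.581 CPM in NC libraries (SD, n = 3 each; 4.01-fold, edgeR adjusted p = 6.04e-31). Chm had 76.4 ± 3.64 CPM in miR28 libraries and 31.6 ± 1.72 CPM in NC libraries (log2 fold change 1.27). Of the transferase subunits Rabggta, the gene mutated in gunmetal mice, stood at -0.35, and Rabggtb at 0.10, a value that turned to -0.13 with upper quartile scaling. Ankrd27, the Varp effector that binds Rab32 and Rab38, rose to 76.9 ± 2.71 CPM in miR28 libraries, against 49.7 ± 0.973 CPM in NC libraries. Sgsm2, which switches off those Rabs, fell to 21.4 ± 2.32 CPM in miR28 libraries, against 65 ± 2.82 CPM in NC libraries (log2 fold change -1.60, edgeR adjusted p = 1.61e-30). Rab29, their close relative, stood at -0.30 and was not called (edgeR adjusted p = 0.126). It ranged from -0.53 with upper quartile scaling, where it was called, to 0.32 with the length trend removed, and 4 of 14 alternatives called it.

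Relatives of Myo5a and Lyst were counted next. Among 6 other unconventional myosins 2 rose and 3 fell, beside 42.1% and 43.9% of all tested genes. Myo10, the motor of filopodia, had 120 ± 6.57 CPM in miR28 libraries and 25.8 ± 2.19 CPM in NC libraries (log2 fold change 2.22, edgeR adjusted p = 4.76e-42). Myo7a, which positions melanosomes in the pigment epithelium of the eye, had 7, 4 and 10 reads in miR28 libraries and 133, 116 and 103 reads in NC libraries. Myo5c, a class V motor of epithelia, rose by 0.77 on the log2 scale. Of 7 tested BEACH relatives of Lyst 6 rose and 0 fell, with a median of 0.80, where 42.1% of all tested genes rose. Wdfy3 rose to 139 ± 5.16 CPM in miR28 libraries, against 43.6 ± 1.23 CPM in NC libraries (log2 fold change 1.67), and Lrba and Nsmaf rose by 1.26 and 0.99. The tested BEACH genes are 7038 to 31361 bases long, and in the longest 10% of genes 66.9% were called higher. With the length trend removed the median of the 7 was 0.09. Wdfy3, Lrba and Nsmaf then stood at 1.07, 0.56 and 0.65, Nbeal2 at 0.09, Nbea at -0.10 and Nbeal1 at -0.37.

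**Figure D5:**
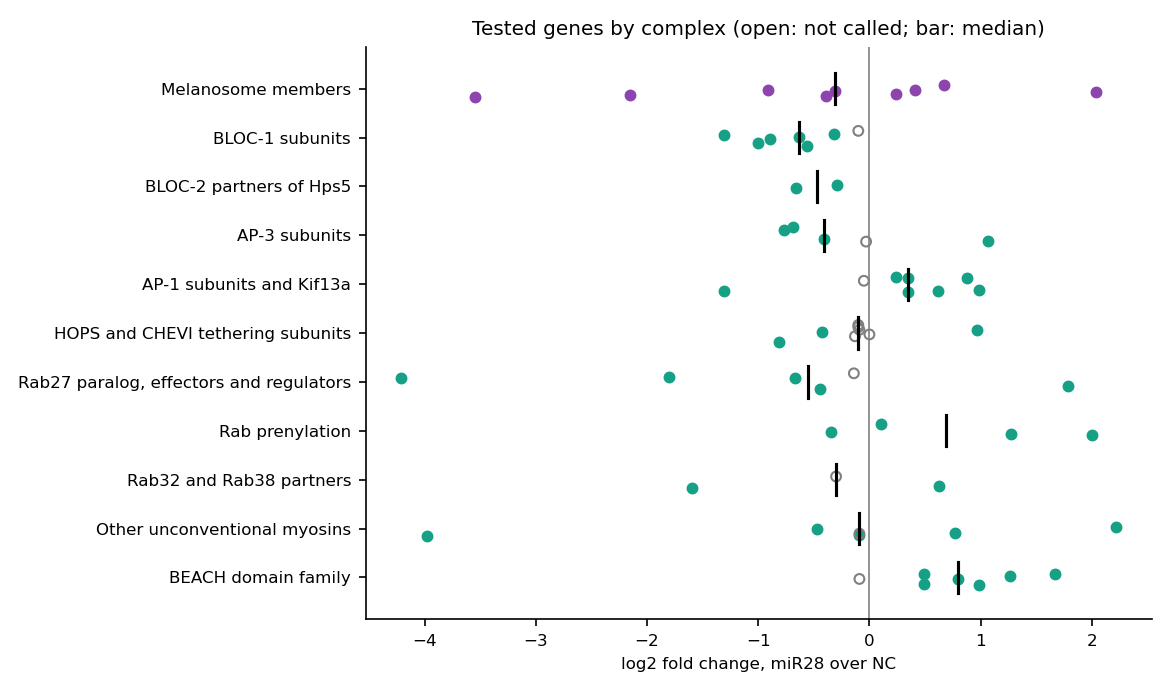
Log2 fold change, miR28 over NC, of the tested genes of each complex or step; filled points passed the test, open points did not, and bars mark the median. All BLOC-1 and BLOC-2 partner points lie below 0 and 6 of 7 BEACH family points above it; with the length trend removed Hps6, Bloc1s4 and Bloc1s6 turn to 0.07, 0.36 and 0.02, and Nbea and Nbeal1 to -0.10 and -0.37.

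The promoters of the genes with the largest falls, Mlph and Hps1, are shown because both hold the E-box CACGTG, a motif read by MITF and related factors. RefSeq (GRCm38.p6) gave promoter windows, from 250 bases before to 50 after the start, for 9 of the 10 genes, with 11 windows in all. CACGTG, which reads the same on both strands, stood in 4 of the 11, from Rab27a, Mlph, Hps1 and Hps5, against 7.15% of 32851 windows. CATGTG on either strand, which shares no letters with a CACGTG match at these places, stood in 1 of the 11, that of Hps1, against 14.2%. Of these 4 genes 2 were higher and 2 lower in miR28 libraries. The window of Hps5, which was called higher, held 2 CACGTG matches, the most of any, and is not printed. The other Hps1 window held neither motif. A link between these matches and Mitf or the fold changes was not tested. In Mlph the E-box begins 48 bases before the start, and in Hps1 the CACGTG begins 1 base and the CATGTG 14 bases before it. Both windows are printed 5′ to 3′ on the strand of the gene with the matches in capitals, and a match is not a measured site.
Mlph, chr1:90914850-90915149, plus strand: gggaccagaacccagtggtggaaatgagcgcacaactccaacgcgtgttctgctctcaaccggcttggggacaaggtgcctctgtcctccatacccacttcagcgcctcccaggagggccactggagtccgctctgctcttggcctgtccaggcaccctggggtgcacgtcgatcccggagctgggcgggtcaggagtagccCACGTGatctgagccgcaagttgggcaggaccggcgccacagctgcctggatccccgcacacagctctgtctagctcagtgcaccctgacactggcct
Hps1, chr19:42779929-42780228, minus strand: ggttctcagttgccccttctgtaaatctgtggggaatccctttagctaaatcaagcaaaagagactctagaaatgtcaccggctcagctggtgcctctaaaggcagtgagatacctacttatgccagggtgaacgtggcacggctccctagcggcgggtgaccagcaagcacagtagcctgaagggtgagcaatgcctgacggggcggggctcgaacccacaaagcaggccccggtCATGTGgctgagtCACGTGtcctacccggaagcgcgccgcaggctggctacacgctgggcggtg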

How the data were processed

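The authors deposited raw read counts per gene for 6 libraries and, in the same table, FPKM values that per the file headers go with those counts; recomputed from count, length and total, all 82387 nonzero FPKM values matched within 0.001%. A second deposited table holds the authors' log2 fold change and adjusted p-value per gene as B over A, without naming the groups. B was read as miR28, since all 9679 genes called in both tables had the same sign. The submitters' processing notes list DESeq, HISAT2 and HTSeq, with no version or role. Strand setting and the handling of reads shared between genes are not given there, so overlapping, antisense or paralogous genes may share reads. The notes name mm9, but 21604 of 21936 genes, all 10 described here among them, have their GENCODE M21 coordinates, so coordinates are those of GRCm38.

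Counts were compared with edgeR 4.0.16 in R 4.3.3, by filterByExpr (minimum count 10, 11809 genes kept), TMM scaling and the robust quasi-likelihood F test, two-sided, adjusted over all tested genes. The SE is the size of the log2 fold change divided by the square root of F. A floor of 3 counts is 0.188 to 0.216 CPM per library, and like the intervals it covers counting error alone. Replicates of a group differed beyond sampling noise (chi-square per degree of freedom 1.85 to 2.62), but by little. The spread between replicates that edgeR estimated, as a biological coefficient of variation, was 2.93%. Alternatives were other scalings and filters, DESeq2 1.42.0, limma 3.58.1 on log2 FPKM, a 1.5-fold minimum, a replicate block, a fit with a smooth length trend removed, and leaving out each library. The fits were also run on simulated counts in which few genes were changed, equally in both directions and with 1 spread for all genes. Most genes differed in the real libraries, so that run cannot tell how scaling or error rates behave here.

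The 10 genes and the partner and marker lists were chosen with earlier results of these data known. From each partner list the 3 genes with the smallest p that were called without overlap of the groups are named, all genes of lists with at most 4, and called BLOC-1, BLOC-2 and AP-3 subunits. Other partner and marker genes, among them Slc24a5, Pdgfra, Col1a1, Cd68, Csf1r, Nbea, Nbeal1 and Nbeal2, were chosen after their values were seen, to account for a count or a sum.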

Additional observations from a re-analysis of the deposited data

How the results depend on the processing

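Of the 9 tested genes, 7 kept their direction and their call in all 14 alternatives other than the 1.5-fold minimum, the exceptions being Rab27a (13 of 14) and Hps5 (9 of 14). Against the 1.5-fold minimum edgeR called 2762 genes higher and 3185 lower, of the 10 genes 1 higher and 3 lower, and of the partner genes 13 higher and 11 lower. With upper quartile scaling 2 of the 10 genes, Myo5a and Rab32, were called higher, while Mlph, Hps1, Lyst, Hps4 and Ap3b1 stayed lower. That scaling called 36 partner genes lower. Over all 11809 tested genes it called 3961 higher and 6288 lower, with a median of -0.26. These counts are therefore not a result about the 10 genes or their partners. Rabggtb turned to -0.13 with upper quartile scaling and, with the length trend removed, Hps6 turned to 0.07, Bloc1s4 to 0.36, Nbea to -0.10 and Nbeal1 to -0.37; the cause was not tested. The replicate block gave 4955 genes higher and 5161 lower and changed no call among the 10. The replicate numbers did not pair the samples, since deviations from the group means correlated at -0.03 to 0.02 over the 9 pairings and not best within a number. Leaving out a library in turn gave 4880 to 4917 genes higher and 5046 to 5082 lower. Depth limits Rab38 and Mlph, with 8 and 9 reads over the miR28 group.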

Other observations

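Genes that the deposited table annotates to the melanosome were looked at after the values above were known, and those named were chosen after their values were seen. Leaving out the 10 genes and their partners, 79 genes carry the term and 73 were tested, of which 34 were higher and 33 lower in miR28 libraries, with a median log2 fold change of -0.03. Both counts lie near the shares over all tested genes, 42.1% higher and 43.9% lower. Many of these are common membrane or chaperone genes. Tfrc, the transferrin receptor, had 827 ± 7.68 CPM in miR28 libraries and 78.2 ± 1.3 CPM in NC libraries (SD, n = 3 each), a log2 fold change of 3.40 (edgeR adjusted p = 7.1e-68). Rab17, a GTPase of polarized epithelia, had 0.604 ± 0.181 CPM in miR28 libraries and 17.6 ± 1.2 CPM in NC libraries, a log2 fold change of -4.85 (edgeR adjusted p = 3.73e-31). Ctns, the cystine exporter of lysosomes, had 19.8 ± 0.991 CPM in miR28 libraries and 101 ± 1.71 CPM in NC libraries (log2 fold change -2.36).

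Mreg, the melanoregulin gene mutated in dilute suppressor mice, had 7.16 ± 1.48 CPM in miR28 libraries and 3.44 ± 0.323 CPM in NC libraries, a log2 fold change of 1.06 (edgeR adjusted p = 3.08e-07). With the same genes left out, 6 genes carry a separate term, melanosome organization. Of these, 3 were tested, and 2 were higher and 1 lower in miR28 libraries. Pikfyve, the lipid kinase of endosomes, rose 2.86-fold to 66.9 ± 3.43 CPM in miR28 libraries, against 23.3 ± 0.716 CPM in NC libraries. Shroom2, an actin-binding protein, rose 2.18-fold to 45.7 ± 1.76 CPM in miR28 libraries, against 20.9 ± 0.848 CPM in NC libraries. Pmel, whose levels are given with the melanocyte markers, was called lower (log2 fold change -1.13, edgeR adjusted p = 0.00285).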
